A study of Drosophila melanogaster with 3 samples.

Results

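Merging the anti-HA peaks of 3 wing disc libraries at an overlap of at least 1 bp gave 10871 regions on the X, the Y and the main autosomal arms (2L, 2R, 3L, 3R and 4), and 5103 of them (46.9%) carried a peak of only some of the libraries. These partial regions are described here: 3234 had a peak of exactly 1 library and 1869 a peak of exactly 2. They were chosen by the presence of a called peak, so their peak heights belong to the choice and are given as description. The other 5768 regions, with a peak of all 3 libraries, serve for comparison and are called complete regions. A library without a peak may still hold signal below the caller's threshold.

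The libraries are CUT&Tag libraries, in which a transposase tethered to an antibody tags DNA near the bound protein. They came from wing imaginal discs of Drosophila melanogaster larvae of the third instar with the genotype nub>GFP;UAS-BunA-HA, kept at 25 °C and dissociated at 37 °C, and all 3 belong to this group. In these discs the nubbin (nub) driver directs GFP and HA-tagged BunA, an ectopic source of the protein, mainly to the wing pouch, beside whatever untagged Bun the cells make. The anti-HA libraries were made with a Vazyme kit, and none without the tagged protein was analysed here to give a background. Libraries 1, 2 and 3 carry the numbers 2, 3 and 4 in their titles. Nothing in the labels says whether they came from separate crosses, so the spread between them may be technical.

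bunched (bun) is the fly member of the TSC22 family, whose proteins carry a leucine zipper beside the conserved TSC box. Its long isoform BunA promotes growth in flies and acts with the adaptor protein Madm. The wing disc is the epithelial sac that forms the adult wing and notum, and the Hippo pathway limits its growth by a kinase cascade that keeps the coactivator Yorkie out of the nucleus.

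On the main chromosomes the libraries held 8270, 8118 and 8273 peaks, of which 14.4%, 11.96% and 13.0% lay in regions of 1 library and 14.2%, 15.5% and 15.8% in regions of 2. Sequencing depth is unknown, because the lists hold no read counts. Wing disc patterning genes had complete regions at a boundary in 40 of 49 cases, tracheal markers in 6 of 9, myoblast markers in 4 of 9, haemocyte markers in 2 of 12, neuron markers in 2 of 11 and fat body markers in 0 of 10, beside 20.6% of all protein-coding genes. Peaks do not measure expression, so the tissue label could not be checked further.

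Partial regions were narrow and low. Regions of library 1 alone numbered 1189, those of library 2 alone 971 and those of library 3 alone 1074. Libraries 1 and 2 shared 561 regions without library 3, libraries 1 and 3 shared 608 without library 2, and libraries 2 and 3 shared 700 without library 1. Median width was 103 bp for regions of 1 library and 144 bp for regions of 2, against 237 bp for complete regions. Fold enrichment is the linear ratio of signal to local background that the authors' caller wrote for each peak. It had a median of 4.99 in regions of 1 library, 5.61 in regions of 2 and 8.20 in complete regions (mean of the libraries with a peak). The highest partial value was 15.8, so some partial regions stood above most complete ones.

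**Figure D1:**
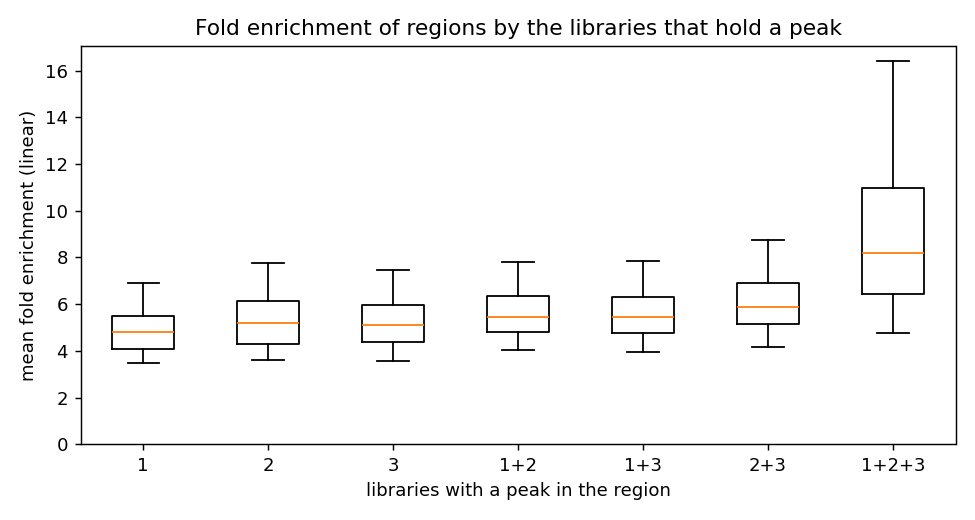
Fold enrichment of regions (linear, mean over the libraries with a peak) by the libraries that hold a peak, shown as medians, quartiles and the 5th to 95th percentiles over regions. The medians of the 6 partial patterns run from 4.82 (library 1 alone) to 5.86 (libraries 2 and 3), below 8.20 for complete regions.

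Many peaks in partial regions shared a few fold values. The 6 commonest values held 41.0%, 40.0% and 39.8% of these peaks in libraries 1, 2 and 3, and neighbouring values were 0.5, 0.52 and 0.51 apart. In library 3 the commonest value, 5.11, was shared by 213 peaks. The other peaks, the larger part in each library, had other values.

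The missing peak was rarely a near miss. A peak of a missing library lay within 100 bp, but without overlap, at 113 of the 3234 regions of 1 library (3.49%) and at 36 of the 1869 regions of 2 (1.93%). The median distance to the nearest such peak was 2092 bp and 1762 bp. At the overlap threshold itself, 25 complete regions were held together by an overlap of 10 bp or less and had a median fold of 5.77 (3.93 to 15.2). Just outside it, 21 partial regions had a peak of a missing library within 10 bp and a median fold of 4.76 (3.84 to 7.76).

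Partial regions lay at gene boundaries less often than complete regions and between genes more often, and how much less depended on the library. A region counts as at a boundary where its centre lies within 1000 bp of either end of an annotated gene. Among regions of library 1 alone, 407 of 1189 (34.2%) were at a boundary, against 450 of 971 (46.3%) for library 2 alone and 436 of 1074 (40.6%) for library 3 alone. Among complete regions 2792 of 5768 (48.4%) were. The per-library difference between regions of 1 library and complete regions was −14.2, −2.06 and −7.81 percentage points, a mean of −8.01 ± 6.06 (SD, n = 3). Complete regions are the same for every library, so the same 48.4% was subtracted each time. The differences are thus not independent, and their SD is that of the shares of regions of 1 library. All 3 libraries differed in the same direction, and the exact two-sided sign-flip permutation test gave p = 0.25, the smallest that 3 libraries allow, so no difference of this kind can pass 0.05 here.

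Regions of 2 libraries divided by the library they lacked. Those that lacked library 1 were at a boundary in 365 of 700 cases (52.1%), above the share of complete regions. Those that lacked library 2 were so in 240 of 608 (39.5%) and those that lacked library 3 in 209 of 561 (37.3%). Taken per library, regions of 2 libraries differed from complete regions by −10.0, −2.89 and −2.15 percentage points, a mean of −5.01 ± 4.33 (SD, n = 3; exact sign-flip permutation test, p = 0.25). The 3 values are not independent, since each region of 2 libraries enters for both. With 1 set per pattern there is no test between patterns.

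**Figure D2:**
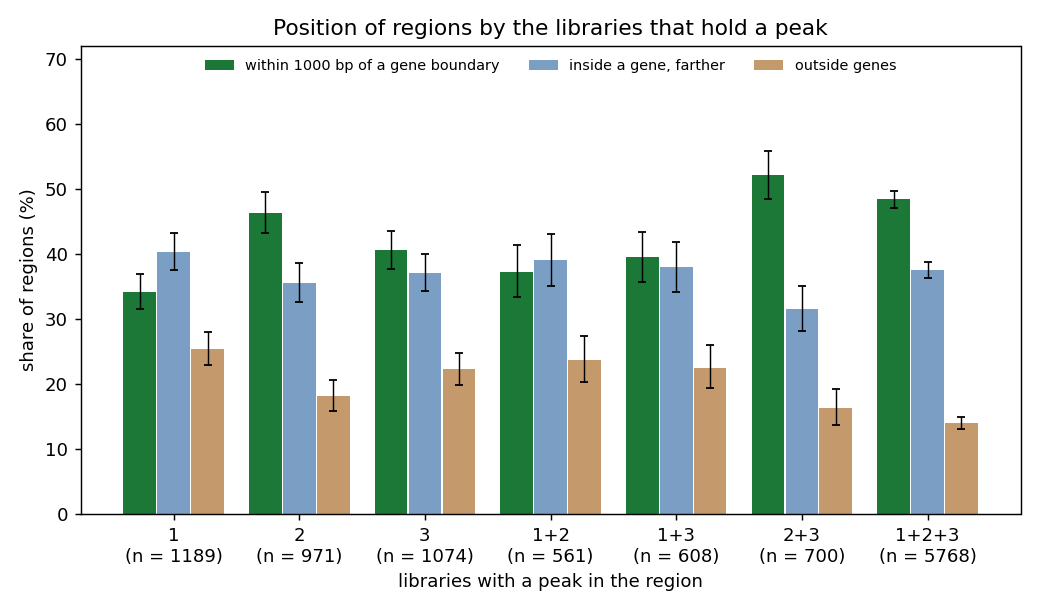
Share of regions (%) within 1000 bp of a gene boundary, inside a gene farther from its boundaries, and outside genes, by the libraries that hold a peak. Bars start at 0 and error bars are 95% Wilson intervals, which cover counting error over regions only. Boundary shares run from 34.2% for library 1 alone to 52.1% for libraries 2 and 3, with 48.4% for complete regions.

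Space between genes took up the difference. Regions over 1000 bp outside any gene made up 302 of 1189 (25.4%) for library 1 alone, 176 of 971 (18.1%) for library 2 alone and 239 of 1074 (22.3%) for library 3 alone, against 810 of 5768 (14.0%) of complete regions. The mean per-library difference was 7.88 ± 3.65 percentage points for regions of 1 library and 6.58 ± 2.15 for regions of 2 (SD, n = 3; exact sign-flip permutation test, p = 0.25 for each). Shares deep inside genes were 37.8% for 1 library, 35.9% for 2 and 37.6% for all 3, and their per-library differences of 0.132 ± 2.46 and −1.57 ± 2.18 were smaller than their SD. Regions of library 1 alone also had the longest median distance to a gene boundary, inside or outside the gene, at 2856 bp, against 1292 bp for library 2 alone and 915 bp for libraries 2 and 3.

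The boundary shares moved with fold enrichment. From below a fold of 4 to above 9 they ran from 29.8% to 85.2% for 1 library, from 20.2% to 70.6% for 2 and from 37.4% to 53.8% for all 3, though not at every step. Between a fold of 4 and 7, where the classes overlap, 40.2% of regions of 1 library, 41.4% of regions of 2 and 40.7% of complete regions were at a boundary. The per-library mean difference was then −0.366 percentage points for 1 library and 0.623 for 2 (exact sign-flip permutation test, p = 1.0 for each, n = 3). The medians within this range still ran from 5.11 through 5.41 to 5.92. The contrast between libraries stayed in the same range: 35.4% for library 1 alone, 46.2% for library 2 alone, 39.6% for library 3 alone and 49.4% for libraries 2 and 3.

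Among higher regions the order turned round. With a fold of 7 or more, a limit chosen after the data were seen, 324 of 535 partial regions (60.6%) lay at a boundary, against 1999 of 3813 complete regions (52.4%). Above a fold of 9 the shares were 23 of 27 (85.2%) for 1 library and 36 of 51 (70.6%) for 2, against 1266 of 2351 (53.8%). At a fold of 7 or more, library 1 alone had 16 of 42 (38.1%) and libraries 1 and 2 had 36 of 69 (52.2%). Neither was above complete regions of a fold of 7 or more. Libraries 1 and 3 had 42 of 73 (57.5%), libraries 2 and 3 had 104 of 158 (65.8%), library 2 alone had 62 of 94 (66.0%) and library 3 alone 64 of 99 (64.6%). At 7 or more the mean per-library difference was 3.81 percentage points for regions of 1 library and 7.51 for regions of 2. The exact sign-flip permutation test gave p = 1.0 and 0.25 (n = 3). The fold of a region of 1 library is a single value and that of a complete region a mean of 3, so equal folds are not equally precise.

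**Figure D3:**
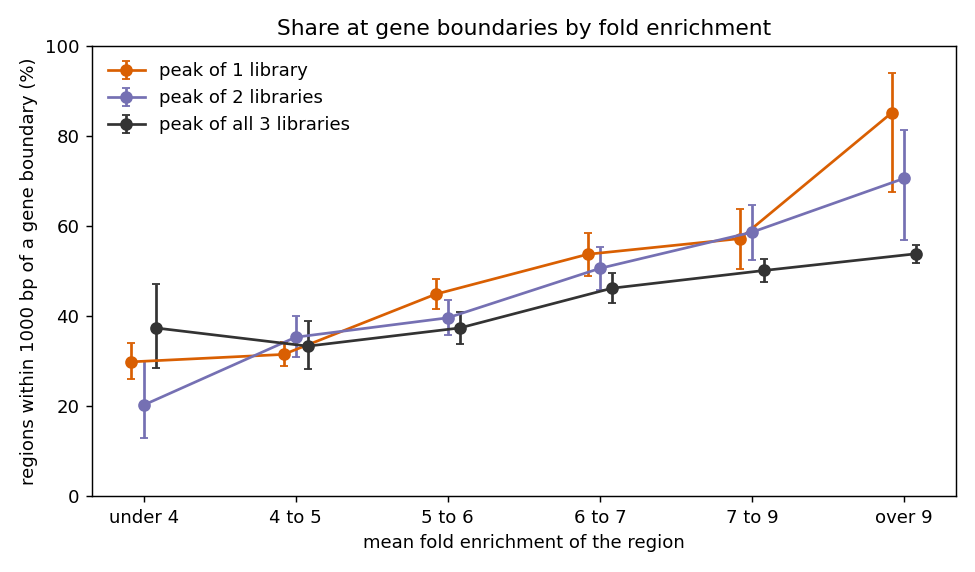
Share of regions (%) within 1000 bp of a gene boundary by mean fold enrichment, for regions with a peak of 1, 2 or all 3 libraries. Error bars are 95% Wilson intervals for counting error over regions. Shares of 1, 2 and all 3 libraries are 29.8%, 20.2% and 37.4% below a fold of 4 and 85.2%, 70.6% and 53.8% above 9, while those of complete regions dip to 33.3% between 4 and 5.

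Partial regions stood farther from complete regions than complete regions from each other. A complete region lay within 1000 bp of 25.0% ± 0.909 of the regions of 1 library and of 31.4% ± 1.52 of the regions of 2 (mean of the libraries, SD, n = 3), against 43.5% for complete regions and their nearest other one. Partial regions also lay outside genes more often (21.6% against 14.0%), and the part of this in the distances was not tested. Of those near genes, 2720 of the 4021 partial regions in or within 1000 bp of a gene (67.6%) shared that gene with a complete region.

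The Y chromosome had the highest partial share. Of its 111 regions 72 (64.9%) were partial, against 41.3% on chromosome 4, 45.8% on 2L and 48.1% on X. Library 1 alone accounted for 26 of them, library 2 alone for 16 and library 3 alone for 11. The other chromosomes ran from 41.3% to 48.1%, close to 46.9% overall. The labels do not give the sex of the larvae.

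At gene level, 1775 of 13946 protein-coding genes (12.7%) had a partial region as the best region at a boundary, that is, a region over the 1000 bp on either side of a gene end and no complete one. These comprise 741 genes (5.31%) at best with a region of 2 libraries and 1034 (7.41%) at best with a region of 1. A complete region marked 2868 genes (20.6%). Median gene length was 2497.5 bp to 3077 bp in the 6 partial patterns, against 4546.5 bp for genes with a complete region and 1793 bp for genes with no region. At 63 of the 1775 genes (3.55%) all 3 libraries had a peak by the gene, but in separate regions.

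Hippo pathway genes had a partial region as their best in 10 of 39 cases (25.6%), against 12.7% of all protein-coding genes, and a complete one in 20 (51.3% against 20.6%). Of the 30 with any boundary region 33.3% had only partial ones, below the 38.2% of all protein-coding genes, so the larger partial share goes with more regions of either kind. Genes of the list had a median length of 11538 bp, longer than the 4546.5 bp of all genes with a complete region, and the part of length in these shares was not tested. The strongest partial region was at Mob4, which encodes a part of the STRIPAK phosphatase complex that restrains Hippo signalling. It lay on 2R at 6696647 to 6696763 (dm6), 38 bp outside the gene, with a fold of 9.84 in library 2 and 8.18 in library 3 and no peak in library 1. The nearest peak of library 1 was 33299 bp away.

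The next was lft, which encodes Lowfat, a partner of the cadherins Fat and Dachsous. Its region on 2L at 10366641 to 10366747 had a fold of 9.32 in library 2 and 7.67 in library 3. Library 1 had its own peak at the other end of the gene, at 10364440 to 10364523, with a fold of 5.48. So all 3 libraries had a peak at lft, at opposite ends.

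Core and upstream members followed with 1 library each. At mats, which encodes the cofactor of the kinase Warts, library 3 alone had a peak of fold 6.65, 50 bp outside the gene. Rassf, which encodes an antagonist of the Hippo kinase, had a peak of fold 5.62 in library 3, 15 bp outside the gene, and one of fold 4.66 in library 2, 1028 bp outside. The peaks at Rassf do not overlap.

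At polarity genes of this list that had only partial boundary regions, the folds were as low. On the separate adhesion and polarity list, 20 of 35 genes had a complete boundary region. The region at par-6 had a fold of 6.55 in library 3 alone, and that at l(2)gl a fold of 4.66 in library 2 alone. At jub, which encodes an inhibitor of Warts at cell junctions, libraries 1 and 3 had 4.99 and 5.11. Complete regions lay farther inside l(2)gl, jub, Tao and msn, with mean folds of 5.43, 5.43, 7.52 and 5.31.

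A pair of kinases that act upstream of Warts or Hippo lacked only library 3. The region at Tao, whose product phosphorylates Hippo, had 5.48 in library 1 and 4.99 in library 2. The region at msn, whose product phosphorylates Warts, had 4.51 and 6.36 in the same libraries. It lay 41 bp outside msn and 875 bp from RpL8, a ribosomal protein gene, so it counts for both. Library 2 alone had higher boundary peaks at msn, of 8.20 (489 bp inside the gene) and 6.40 (885 bp outside). hth, whose homeodomain product binds Yorkie, had a boundary peak in library 3 alone (4.50), beside 21 complete regions elsewhere in or near this long gene.

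**Figure D4:**
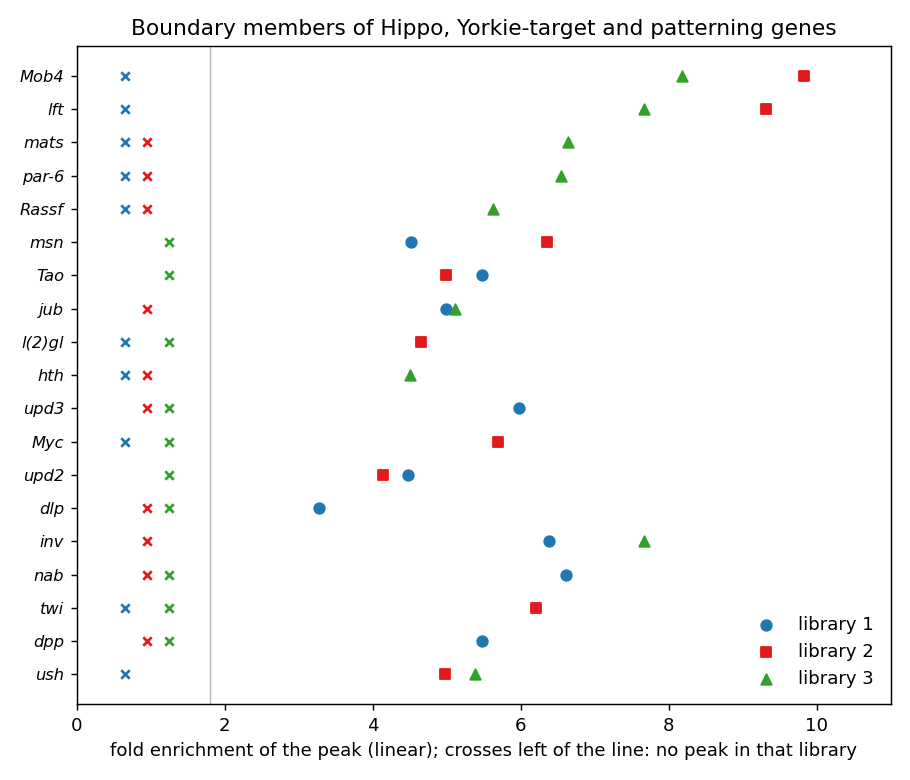
Fold enrichment (linear) in each library of the best boundary region of the genes of the Hippo, Yorkie-target and patterning lists for which that region is partial. Crosses on the left mark libraries with no peak there. Values run from 3.27 at dlp to 9.84 at Mob4, and no region has a value in all 3 libraries.

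Targets of Yorkie and Scalloped had a partial best region in 4 of 23 cases (17.4%, 12.7% of all protein-coding genes) and a complete one in 16 (69.6% against 20.6%). The cytokine genes upd2 and upd3, which encode JAK-STAT ligands, were among the 4. At upd2 the region lay on X at 18243478 to 18243678, with folds of 4.47 and 4.14 in libraries 1 and 2. At upd3 library 1 alone had a peak of 5.98, 920 bp outside the gene. Myc, a growth regulator gene, had a peak of 5.69 in library 2 alone, 53 bp outside the gene, and dlp, a glypican gene, one of 3.27 in library 1 alone. Both also had complete regions inside the gene, with a mean fold of 11.9 in Myc and up to 10.9 in dlp.

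Patterning genes had only partial regions at a boundary in 6 of 49 cases (12.2%), a share like the 12.7% of all protein-coding genes. A complete region marked 81.6% of them, so partial regions made up 13.0% of those with any, against 38.2% of all protein-coding genes. At inv, the homeobox neighbour of en, libraries 1 and 3 had 6.38 and 7.67. Libraries 2 and 3 had a separate boundary region there, with 4.62 and 7.25. A complete region with folds of 22.8, 19.9 and 19.2 lay 1132 bp inside the gene, just beyond the window. At nab, which encodes a transcriptional cofactor, library 1 had a peak of 6.61 on 3L at 4161026 to 4161113 and library 3 one of 4.41 at 4161140 to 4161228, neighbours that did not overlap. dpp, the gene of the BMP ligand Dpp, had 5.48 in library 1 alone, 460 bp outside the gene, and complete regions inside. ush, the gene of a cofactor of GATA factors, had 4.97 and 5.38 in libraries 2 and 3. twi, a myoblast marker gene, had 6.21 in library 2 alone. Complete regions lay inside both genes as annotated, with mean folds of up to 15.5 in ush and 13.3 in twi.

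Cytoplasmic ribosomal protein genes had the highest partial share of all genes listed among the 38 lists. Of 93 listed, 31 (33.3%) had a partial region as their best, against 12.7% of protein-coding genes, and 27 (29.0%) had a complete one. So 53.4% of those with any boundary region had only a partial one, against 38.2% of all protein-coding genes. By this second measure other lists were higher, among them mitochondrial ribosomal protein genes (55.2%) and cuticular protein genes (81.0%). Peaks of libraries 1, 2 and 3 lay at 42, 51 and 43 of these genes (45.2%, 54.8% and 46.2%), 48.7% ± 5.30 (SD, n = 3). Over all protein-coding genes the shares were 25.7%, 27.5% and 27.5%. The list also takes in the related gene RpLP0-like.

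In 18 of 31 cases the centre of the region was within 200 bp of an end of the ribosomal protein gene itself. Among all partial regions at a boundary, 1033 of 2107 were within 200 bp of the nearest end of any gene. That condition is easier to meet, so the 2 counts are not like for like. The median fold of the 31 regions was 6.13 (3.81 to 13.0). The strongest was at RpL7 on 2L, at 10200950 to 10201117 and centred 2 bp inside the gene end, with a fold of 10.97 in library 1 and 15.01 in library 2. The nearest peak of library 3 was 25200 bp away. RpL34b had 11.4 and 10.2 and RpS5a 10.4 and 7.67, both in libraries 2 and 3. By pattern, 10 of the 31 lacked only library 1, 6 only library 3 and 3 only library 2, while 6 were in library 2 alone, 4 in library 1 alone and 2 in library 3 alone. Every combination of libraries thus occurs at these genes. Of all 1775 protein-coding genes with a partial region as their best, 353 lacked only library 1.

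**Figure D5:**
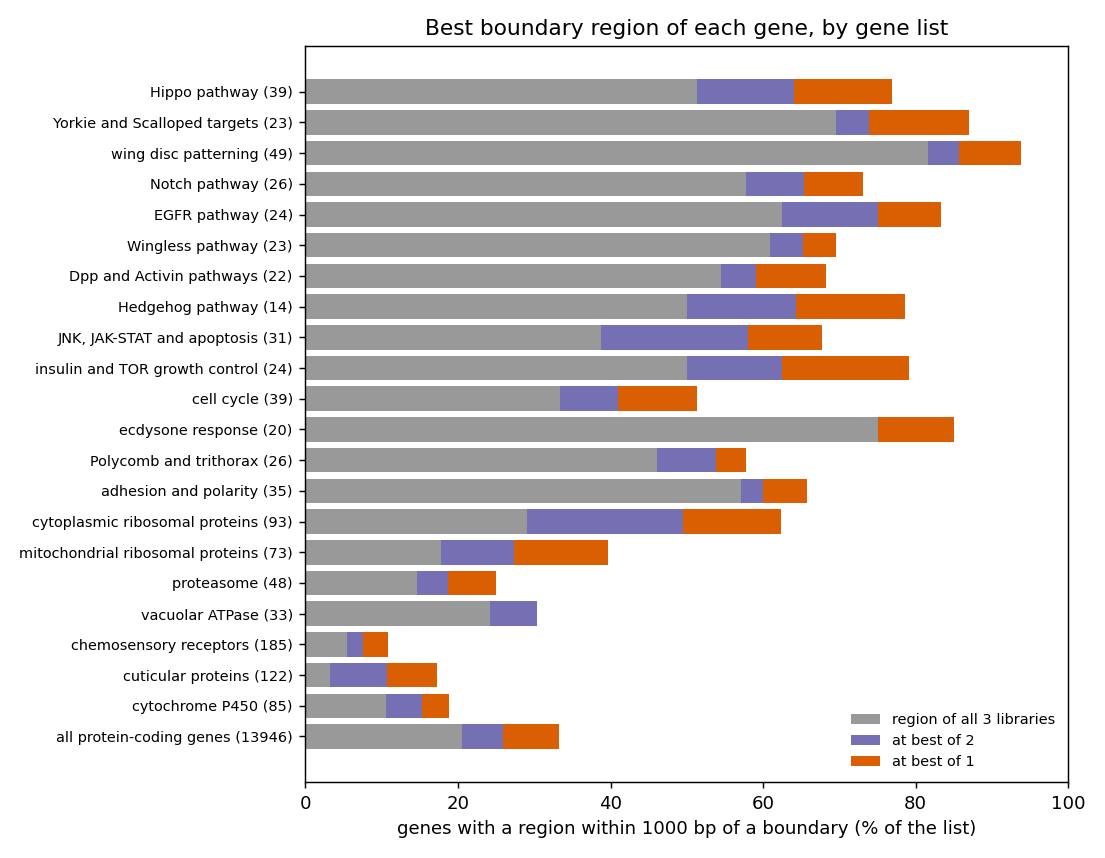
Share of the genes of each list (%, number of genes in brackets) with a complete boundary region, or at best one of 2 libraries or of 1. Cytoplasmic ribosomal protein genes have 33.3% with a partial region as the best and wing disc patterning genes 12.2%, beside 12.7% of all protein-coding genes.

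Other lists varied around the background of protein-coding genes, 12.7% with a partial region as the best and 20.6% with a complete one. Mitochondrial ribosomal protein genes had 16 of 73 (21.9%), led by mRpS18B (8.18 in library 3 alone). Proteasome genes had 5 of 48 (10.4%) and vacuolar ATPase genes 2 of 33 (6.06%). Cuticular protein genes had few complete regions, at 4 of 122 genes (3.28%) against 20.6%. Chemosensory receptors (5.41%) and odorant-binding protein genes (5.88%) also had few complete ones. A partial region was the best at 17 of the 122 cuticular protein genes (13.9%), near the 12.7%. Their strongest, at Cpr47Ea on 2R, had 9.84 and 8.18 in libraries 2 and 3 and also lay 398 bp outside the odorant receptor gene Or47a. Partial regions were the best at 10 of 185 chemosensory receptors (5.41%) and 7 of 85 cytochrome P450 genes (8.24%). Odorant-binding protein genes had 3 of 51 and Osiris genes 2 of 23. Heat shock genes had 2 of 19, Hsp110 (8.35 in library 2 alone) and Hsp26 (3.15 in library 1 alone), beside 14 (73.7%) with a complete region. Chorion and vitelline membrane genes had 1 of 15.

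Growth and stress signalling lists had partial shares of 29.2% for insulin and TOR genes (7 of 24) and 29.0% for the JNK, JAK-STAT and apoptosis list (9 of 31), each against 12.7%. Complete regions were more frequent in them too, at 50% and 38.7% against 20.6%. Of the genes with any boundary region 36.8% and 42.9% had only partial ones, near the 38.2% of all protein-coding genes. In the first, Ilp8, the gene of a relaxin-like peptide that delays metamorphosis, had 8.80 and 9.71 in libraries 2 and 3, and chico, the insulin receptor substrate gene, 6.21 and 10.2 in the same libraries. In the second, wgn, a TNF receptor gene, shared with Rip11 a region on X at 18635353 to 18635497 with 11.5 and 9.94 in libraries 1 and 3. Genes of the insulin and TOR list with a boundary peak numbered 12, 17 and 17 in libraries 1, 2 and 3. Those of the JNK list numbered 20, 16 and 15. In each list 12 genes with a complete region enter all of these counts. Over all protein-coding genes 25.7%, 27.5% and 27.5% had a boundary peak, so library 1 was lowest there as on the insulin and TOR list. The JNK list ran the other way.

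Remaining pathway lists had few members each, to be read against 12.7% of all protein-coding genes, or 38.2% of those with a region. Of the genes with a region, partial shares ran from 11.8% on the ecdysone list to 36.4% on the Hedgehog list, all below 38.2%. The EGFR list had 5 of 24, with Cbl, a ubiquitin ligase gene, at 7.25 and 7.16 in libraries 2 and 3 and Sos, a Ras exchange factor gene, at 6.98 and 7.16 in libraries 1 and 3. The Hedgehog list had 4 of 14, with fu, a kinase gene, at 6.01 and 8.17 in libraries 2 and 3 and smo, the signal transducer gene, at 5.98 and 6.21 in libraries 1 and 2. The Notch list had 4 of 26, led by H, the gene of the repressor Hairless, at 7.48 and 6.10 in libraries 1 and 3. Partial counts were 7 of 39 for the cell cycle list, with CycB3 at 10.9 and 9.20 and the checkpoint gene mad2 at 8.28 and 11.4, both in libraries 2 and 3. They were 2 of 8 for Hox genes (abd-A and Antp), 3 of 22 for the Dpp and Activin list, led by the Smad gene Mad, 2 of 23 for the Wingless list, 2 of 20 for ecdysone response genes, 3 of 26 for Polycomb and trithorax genes and 3 of 35 for adhesion and polarity genes.

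Markers of other cell types were marked in partial regions too. Haemocyte markers had 3 of 12: Hml, lz and ush, which is on the patterning list too. The best regions at Hml (8.69) and lz (7.16) were of library 3 alone. In separate regions, library 1 also had a boundary peak at Hml and library 2 one at lz. Fat body markers had 2 of 10, Lsp1beta (6.21 and 7.16) and Lsp1gamma (5.44 and 3.94), both in libraries 2 and 3. Myoblast markers had 2 of 9, twi and zfh1, tracheal markers 1 of 9, serp, and neuron markers 0 of 11. These lists are too short to set against 12.7%.

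Some genes of small RNAs, such as tRNA genes, come in near-identical copies. The authors' mapping could have split the reads of such copies, so their values are uncertain. Among all 17807 annotated genes 12% had a partial region as the best one (4.95% of 2 libraries and 7.08% of 1) and 20.3% a complete one. tRNA genes had 43 of 295 (14.6%), of which 13 lacked only library 1. These are genes, and neighbours can share a region, as tRNA:Ser-GCT-2-3 and tRNA:Ser-GCT-2-5 do. For this pattern the comparison is with protein-coding genes only: of 1775 with a partial region as the best one, 353 lacked only library 1. Small nuclear RNA genes had 9 of 32 (28.1%). A single region of library 1 on 3R, at 24557033 to 24557145 with a fold of 7.98, accounts for the snRNA:U6 genes 96Aa, 96Ab and 96Ac. Histone genes, a tandem array, had 15 of 111 (13.5%) beside 94 with a complete region. Small nucleolar RNA genes had 25 of 274 (9.12%) and microRNA genes 13 of 260 (5%).

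The strongest regions of 1 library had peaks of the others close by at some genes and not at others. For library 1 the highest stood 31 bp outside Mical, which encodes an actin-oxidising enzyme, on 3R at 10042872 to 10042958, with a fold of 9.97, with the nearest peaks of libraries 2 and 3 at 36460 bp and 2546 bp. NdufV3, a respiratory complex I gene, had 9.47, with a peak of library 3 at 219 bp, and r2d2, which acts in RNA interference, 8.98. For library 2 the highest was inside RhoGAPp190 on X at 17651978 to 17652075, with 14.5, but a complete region lay 496 bp from it. Srrm1, a splicing gene, had 12.4 and aph-1, which encodes a gamma-secretase subunit, 12.1, 12 bp and 41 bp outside the gene. For library 3 the highest values were 10.7 at Tre1, a receptor gene, and likewise 10.7 in Pfk, the phosphofructokinase gene, 479 bp and 201 bp from peaks of library 1, followed by RabGGTb (9.87) and CheB93a (9.71).

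Regions of 2 libraries reached higher. The highest lay on 3R at 29764420 to 29764612, 1486 bp outside kay, which encodes the AP-1 subunit Fos, with 17.3 in library 2 and 14.3 in library 3, while the nearest peak of library 1 was 1276 bp away. At the boundary of kay itself libraries 1 and 3 had another region, with 6.43 and 4.60. Next among those that lacked library 1 and lay at a gene end were mio, which encodes a GATOR2 subunit of TOR control (10.7 and 12.8), and IPIP (13.2 and 10.02). Beside RpL7, those that lacked library 3 were led by Prosap, a synaptic scaffold gene (10.3 and 12.4), and Sec61gamma, a translocon gene (7.71 and 13.3). After Rip11, those that lacked library 2 were led by Fcp3C (9.80 and 11.2) and DIP1 (9.97 and 10.7).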

How the data were processed

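The authors' deposited files are 3 peak lists on dm6, 1 per library. The submitters' processing notes name Bowtie, Bowtie2, ChIPseeker, deepTools, FastQC, HOMER, MACS2, R 4.2.1 and Trim Galore. Their settings were not used here. Peak names carry 1 library's name, so the authors called peaks per library. The deposited lists give a fold enrichment (a linear ratio over the caller's background), a −log10 p-value, a −log10 q-value and a score. They hold no read counts, so depth is unknown, and Wilson intervals cover counting error over regions only.

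Peaks overlapping by 1 bp were merged. Regions were centred on their averaged summits, and a region's fold averages each library's highest peak. Gene ends came from the NCBI RefSeq table of Release 6 plus ISO1 MT (17807 genes, no strand or exons). Of 493 names on 22 hand-written lists 25 matched no gene, and 16 lists used symbol patterns. Named genes are the 3 strongest boundary regions of each of the 6 library patterns, the strongest anywhere, all partial genes of the Hippo, target, patterning and bunched lists (none on the last, nor among 12 Y chromosome genes), and at most 3 of other lists. Members and lists were chosen with earlier results of these data known. Per-library differences were tested by exact two-sided sign-flip permutation over 3 libraries (Python 3.11.15, pandas 2.3.3, SciPy 1.17.1). Merging and placement were tested on simulated data. No genome sequence was used here, so planned promoter windows, motif shares and sequences were left out.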

Additional observations from a re-analysis of the deposited data

Results flagged for a closer look

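Off the main chromosomes, on unplaced or unlocalised scaffolds and the mitochondrial genome, data that the comparisons do not use, 607 of 1224 merged regions (49.6%) had a peak of only 1 or 2 libraries. No control signal was used here.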

How the results depend on the processing

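The direction of the boundary and between-gene differences, taken as per-library means in percentage points, was the same in 54 of 62 values under other settings and turned in 8, all of them where folds were restricted. At a fold from 4 to 7 the boundary difference of regions of 2 libraries was 0.623, and with peaks above the library median 0.813. Settings chosen after the data were seen gave boundary differences of 7.46 (1 library) and 2.03 (2 libraries) at a fold from 5 to 6, and of 3.81 and 7.51 at 7 or more, with between-gene differences of −0.430 (1 library, 5 to 6) and −0.819 (2 libraries, 7 or more). Without replicate 1, 2 or 3 in turn, the boundary difference ran from −7.55 to −5.05 and the between-gene difference from 5.93 to 7.64. Over all settings the exact sign-flip permutation p was never below 0.25.

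Partial regions numbered 2529 with peaks above the library median, and 3253 (without replicate 1) to 3575 with a replicate left out, where a region can miss only 1 library. In 14 of 14 settings regions of libraries 2 and 3 had the highest boundary share of the 2-library patterns, and regions of library 1 alone the lowest of the 1-library patterns. Of 110 other values, 55 moved. A boundary share counted as moved when it left its 95% Wilson interval. The partial share of regions or of protein-coding genes did so at a change of 1 percentage point or more. The counts of protein-coding, Hippo and cytoplasmic ribosomal protein genes stayed within 1.5 times their value. Promoter-window settings were not run. No paired analysis was possible because there is 1 group, so replicate numbers pair no groups. The per-library differences set the partial regions of each library against the same complete regions. The unknown depth limits what a missing peak can mean.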

Other observations

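A few long genes held the most partial regions, counted in the gene or its 1000 bp flanks. Myo81F on 3R, which spans 1965857 bp, had 33, of which 25 were of 1 library, beside 3 complete regions. kirre, which encodes an adhesion protein of muscle founder cells, had 17 and as many complete ones. Pzl, which encodes a Piezo-like channel, had 14 beside 3, and jing, which encodes a zinc finger protein, 14 beside 18. SKIP had 11, each of a single library, beside 10 complete ones. These genes were chosen after their values were seen.

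Of 5125 protein-coding genes with any region in or near them, 1792 had partial regions only, 1542 had both kinds and 1791 complete regions only. MESR3 had the most without a complete region, 9, followed by Pvf3, which encodes a ligand of the PDGF- and VEGF-related receptor, with 7. wgn had 5, all partial, and Hsc70-4, which encodes a constitutive chaperone, had 4. On the Y chromosome kl-3, a dynein heavy chain gene, had 5 regions of 1 library and 1 complete region, while kl-2 and kl-5 had 2 complete regions each and no partial one.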
